A study of Mus musculus with 2 samples.

Results

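The muscle miRNAs are a small group of miRNAs that heart and skeletal muscle produce in large amounts. The 9 hairpins described here were chosen by name from the GENCODE annotation, out of 1174 mouse miRNA hairpins, and they are Mir1a-1, Mir1a-2, Mir133a-1, Mir133a-2, Mir133b, Mir206, Mir208a, Mir208b and Mir499. They were measured in J1 ES cells, a mouse embryonic stem cell line, after 24 h in medium with 1 mM AICAR, or with the solvent DMSO as control. The study describes gelatin and LIF for other assays of these cells, and gives no plate coating for the sequenced ones. AICAR enters cells and switches on the kinase AMPK, a sensor of low cellular energy. The control library carries the title J1_U and the treatment label DMSO, and it was used as the DMSO library. Of each condition 1 sRNA library was sequenced, so no difference between the libraries was checked in replicate libraries. For some other miRNAs the paper reports real-time PCR in independent experiments, with changes in the same direction as in its sequencing. The text of the paper names none of the 9 hairpins among them. The labels give no clone, passage or separate culture beyond the cell line.

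A miRNA is cut from a hairpin in a longer primary transcript, and either arm of the hairpin (5p or 3p) can give the mature strand. Bases 2 to 8 from its 5′ end, the seed, do most of the pairing with target mRNAs. MiR-1 and miR-133 come from shared transcripts and act in muscle differentiation and proliferation. MiR-206 is typical of skeletal muscle, and its hairpin lies beside that of miR-133b. MiR-208a, miR-208b and miR-499 lie in introns of myosin heavy chain genes, on the strand of the host.

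The mature sequences of RefSeq (GRCm38.p6) are shown in the 5′ to 3′ direction with the seed in capitals, because the seed sorts the members into families. RefSeq sequences were matched for 6 of the 9 hairpins.
miR-206-3p: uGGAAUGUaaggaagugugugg
miR-133b-3p: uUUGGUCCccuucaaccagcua
miR-208a-3p: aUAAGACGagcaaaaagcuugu
miR-208b-3p: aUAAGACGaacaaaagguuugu
miR-499-5p: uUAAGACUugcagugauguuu
MiR-1a-3p has the seed of miR-206-3p, and the sequences are identical at 18 of 22 positions. MiR-133a-3p has the seed of miR-133b-3p and is identical to it at 21 of 22 positions. MiR-208a-3p and miR-208b-3p share their seed and 19 of 22 positions. MiR-499-5p differs from both in the last base of the seed: 6 of the 7 seed bases are the same. Over its whole length it has 12 of 21 positions identical with miR-208a-3p and 10 of 21 with miR-208b-3p.

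On GRCm38, Mir499 lies on the plus strand of chromosome 2 (155622880 to 155622958), in an intron of Myh7b, a myosin heavy chain gene transcribed from the same strand (155611212 to 155634307). Mir208a (chromosome 14, 54949060 to 54949142) lies in an intron of Myh6, and Mir208b (54975700 to 54975776) in an intron of Myh7, both on the strand of the host. Myh6 and Myh7 encode the main myosin heavy chains of the heart. Mir206 (chromosome 1, 20679010 to 20679082) and Mir133b (20682769 to 20682887) lie in exons of the long non-coding RNA gene Gm28653, 3686 bp apart. Mir1a-1 (chromosome 2, 180389048 to 180389124) and Mir133a-2 (180398379 to 180398482) lie 9254 bp apart, within no other annotated gene. Mir133a-1 (chromosome 18, 10782909 to 10782976) and Mir1a-2 (10785481 to 10785552) lie 2504 bp apart in an intron of the non-coding gene Mir133a-1hg, on the strand opposite to the protein-coding gene Mib1.

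The DMSO library held 18870345 clean reads and the AICAR library 21091226. Tags, the distinct read sequences of 18 to 44 nt, were matched to the hairpins without mismatch, and 11.6% of the DMSO and 15.7% of the AICAR reads lay on annotated hairpins. Levels are given as RPM, reads per 1000000 clean reads, so that 1 read is worth 0.0530 RPM with DMSO and 0.0474 RPM with AICAR. Where a miRNA had 0 reads, 3 reads were taken as the limit that this count allows (0.159 RPM with DMSO and 0.142 with AICAR). A fold change is the AICAR level divided by the DMSO level. All intervals are 95% intervals for counting error only, and they take the reads as independent. Reads copied by PCR are not independent molecules, so the intervals can be too narrow. In these pooled cells, a change in the number of cells that make a miRNA and a change in the amount per cell cannot be told apart.

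Of the 9 hairpins, 7 had at least 1 read and 2, Mir133b and Mir208a, had none in either library. Mir1a-2, Mir133a-1 and Mir133a-2 had no tags of their own, since all their reads also fit another member, and Mir208b had 1 read. Together the members held 3450 reads of the DMSO and 6196 of the AICAR library. Nearly all of these came from 3 mature strands: miR-1a-3p, miR-499-5p and miR-206-3p. The other 4 arms with reads (miR-133a-3p, miR-133a-5p, miR-208b-3p and miR-1a-1-5p) had fewer than 20 reads each in the libraries together. MiR-1a-3p made up 86.0% of the member reads with DMSO (84.8% to 87.1%, Wilson) and 68.9% with AICAR (67.8% to 70.1%). MiR-499-5p made up 12.1% (11.1% to 13.2%) and 30.4% (29.2% to 31.5%). The reads of miR-1a-3p thus outnumbered those of miR-499-5p by 7.10 to 1 with DMSO and by 2.27 to 1 with AICAR.

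**Figure D1:**
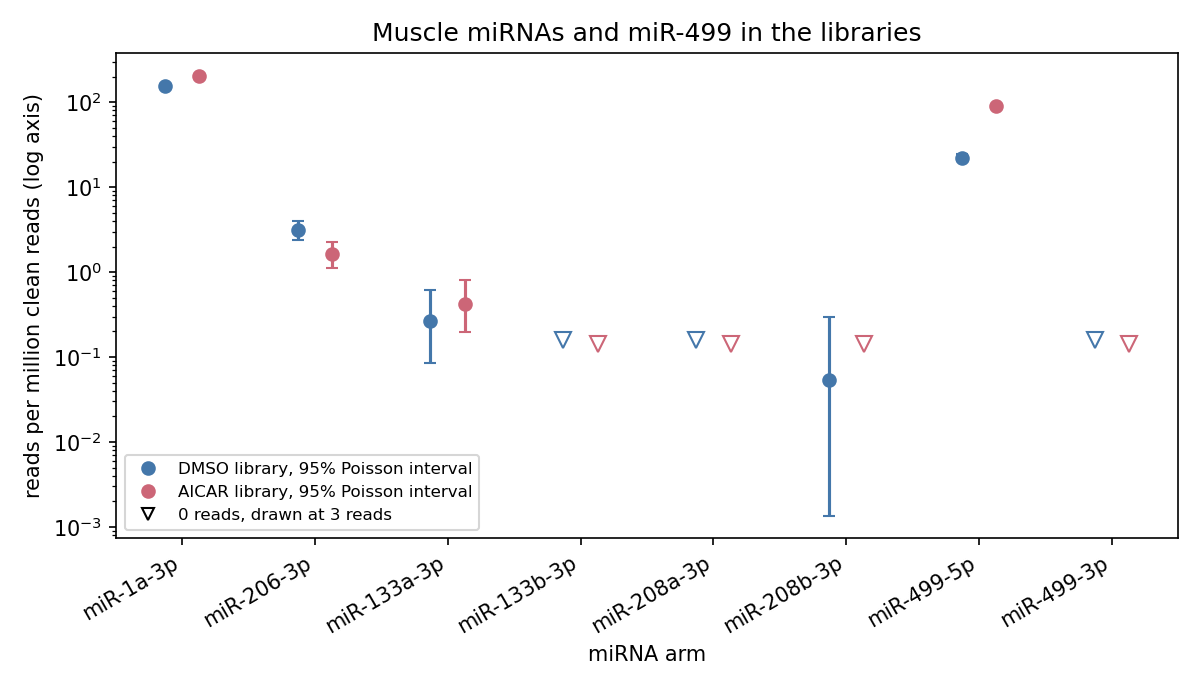
Level of each arm (x axis) in RPM (log axis) in the DMSO and the AICAR library, with exact 95% Poisson intervals, and open triangles at 3 reads where an arm had 0 reads. MiR-1a-3p is highest in both libraries (157 and 202 RPM), miR-499-5p is next (22.2 and 89.2 RPM), and miR-133b-3p, miR-208a-3p and miR-499-3p had 0 reads.

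Across all miRNAs, 509 arms reached 1 RPM in at least 1 library and were tested. The reads of an arm were set against all remaining clean reads of each library (Fisher's exact test, two-sided), which compares a pair of libraries and says nothing of how cultures vary. Calls needed p at most 0.01 and a level that was at least doubled (2-fold) or at most 0.5 of the DMSO level. By this rule 56 arms (11.0%) were up-regulated and 48 (9.43%) down-regulated in the AICAR library, 104 (20.4%) in all, and the median fold change was 1.10 (log2 0.13). The balance depends on the denominator: relative to miRNA reads 21 arms were up-regulated and 112 down-regulated. Of the 3 member arms tested, 1 was up-regulated, miR-499-5p, and none was down-regulated. With so few arms tested, this count was not read against those percentages.

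MiR-499-5p, the strand of Mir499 that accompanies myosin gene expression in slow muscle and heart, was read 418 times in the DMSO library (22.2 RPM, exact Poisson interval 20.1 to 24.4) and 1881 times in the AICAR library (89.2 RPM, 85.2 to 93.3). The level was higher in the AICAR library, and the intervals lay far apart. The fold change was 4.03 (exact binomial interval 3.62 to 4.49, p = 6.2e-187, Fisher's exact test, Benjamini-Hochberg adjusted p = 7.2e-186 over all 509 arms). By fold change it was number 10 of the 509 arms, and number 3 of the 272 arms that reached 10 RPM in either library. In order of level it moved from number 187 in the DMSO library to number 105 in the AICAR library. As a share of all hairpin reads it went from 0.0192% to 0.0567%. The call depends on how far replicate libraries would spread: with an assumed coefficient of variation of 0.4 between libraries, edgeR's exact test gave p = 0.0205, which misses 0.01.

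MiR-1a-3p, which Mir1a-1 and Mir1a-2 give alike, was the most abundant member. It had 2966 reads (157 RPM, interval 152 to 163) in the DMSO library and 4270 reads (202 RPM, 196 to 209) in the AICAR library. The fold change relative to clean reads was 1.29 (1.23 to 1.35, p = 1.8e-26, Fisher's exact test), under the threshold of 2. With an assumed coefficient of variation between libraries of 0.2 or 0.4, edgeR's exact test gave p = 0.376 and p = 0.662. When miRNA reads were the denominator the direction turned, with a fold change of 0.945 (0.902 to 0.991). That denominator moves the median log2 fold change of all tested arms from 0.13 to -0.31. In order of level, miR-1a-3p was number 83 of the tested arms in the DMSO and number 72 in the AICAR library, so a miRNA known from muscle ranked in the upper part of the miRNAs of these ES cells in both conditions.

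MiR-206-3p, the seed mate of miR-1a-3p, was rare. It had 59 reads (3.13 RPM, interval 2.38 to 4.03) in the DMSO library and 34 reads (1.61 RPM, 1.12 to 2.25) in the AICAR library. The AICAR value was the lower, and the fold change of 0.516 (interval 0.328 to 0.799; p = 0.00178, Fisher's exact test, Benjamini-Hochberg adjusted p = 0.00324) was just short of the threshold of 0.5. It passed that threshold with each of the 3 other denominators, at a fold change of 0.378 for miRNA reads, 0.460 for TMM and 0.483 for median ratios. With an assumed coefficient of variation between libraries of 0.2 or 0.4, edgeR's exact test gave p = 0.0745 and p = 0.305. MiR-1a-3p had 50.3 times the reads of miR-206-3p with DMSO and 126 times with AICAR. The fold change of miR-1a-3p was 2.50 times that of miR-206-3p (1.61 to 3.94, p = 1.7e-05, Fisher's exact test), a ratio that does not depend on the denominator.

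MiR-133a-3p was close to the limit of detection. It had 5 reads (0.265 RPM, interval 0.0860 to 0.618) in the DMSO library and 9 reads (0.427 RPM, 0.195 to 0.810) in the AICAR library. The fold change of 1.61 had an interval from 0.485 to 6.12, so no difference was detectable at this depth. The other strand, miR-133a-5p, had 1 read with DMSO and 0 with AICAR. MiR-133b and miR-133c, which share the family name, had 0 reads in both libraries.

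The myosin intron members other than Mir499 were at the floor. MiR-208b-3p was read once in the DMSO library and not in the AICAR library, and its tag was the mature sequence shown above. Mir208a had 0 reads, which allows up to 0.159 RPM with DMSO and 0.142 RPM with AICAR. MiR-499-5p, at 22.2 and 89.2 RPM, was thus the only one of the 3 myosin intron hairpins with more than 1 read in these libraries.

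Whether miR-499-5p moved apart from the other members was tested directly, by comparing its reads with those of each other arm over the libraries (Fisher's exact test, Benjamini-Hochberg adjustment over 6 pairs). The fold change of miR-499-5p was 3.13 times that of miR-1a-3p (interval 2.78 to 3.52, adjusted p = 2.5e-94 by Fisher's exact test). It was 7.81 times that of miR-206-3p (4.96 to 12.4, adjusted p = 2.6e-20, Fisher's exact test). Against miR-133a-3p the ratio was 2.50, with an interval from 0.654 to 8.35 (adjusted p = 0.219, Fisher's exact test), so an equal fold change and one several times smaller both lay within it. The other 3 arms had 1 or 2 reads and their tests could not tell. Among the members with enough reads, then, miR-499-5p differed from miR-1a-3p and miR-206-3p between these libraries beyond counting error. The test does not measure how far replicate libraries would spread. No statement can be made for miR-133a, miR-133b, miR-208a and miR-208b.

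**Figure D2:**
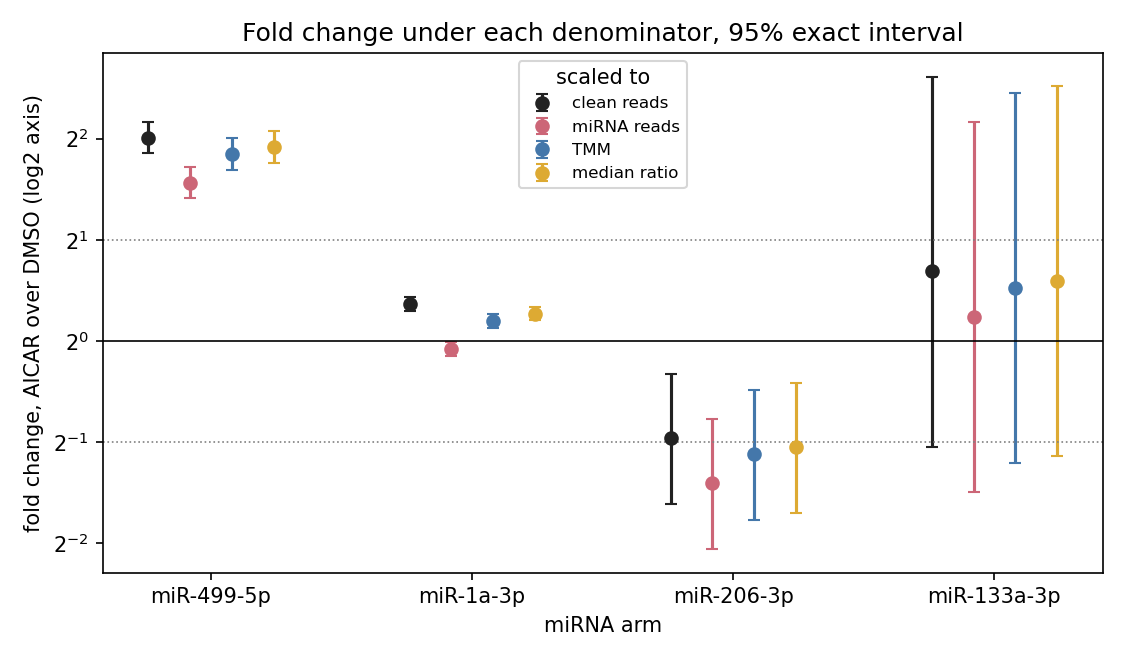
Fold change of AICAR over DMSO (log2 axis) for the 4 most abundant arms, with exact 95% binomial intervals, scaled to clean reads, to miRNA reads, by TMM and by median ratio, and dotted lines at 2 and 0.5. MiR-499-5p lies above 2 under each scaling (2.95 to 4.03), miR-1a-3p crosses 1 (0.945 to 1.29), miR-206-3p lies below 1 (0.378 to 0.516), and the interval of miR-133a-3p spans 1 under each scaling.

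MiR-499-5p was not alone among all miRNAs, however. Of the arms with at least 10 RPM, miR-122-5p (55 reads with DMSO and 536 with AICAR, fold change 8.72) and miR-129-1-3p (66 and 510 reads, 6.91) had larger fold changes. The 5 arms with the nearest log2 fold change to that of miR-499-5p over these 2 libraries were miR-484-5p (3.69), miR-345-5p (3.07), miR-210-3p (2.74), miR-145a-5p (2.73) and miR-434-3p (2.52). MiR-210 is known for its induction by low oxygen and miR-145 for its abundance in smooth muscle. The intervals of miR-484-5p (3.06 to 4.48) and miR-345-5p (2.48 to 3.83) overlap that of miR-499-5p. Those of miR-210-3p (2.60 to 2.89), miR-145a-5p (2.21 to 3.39) and miR-434-3p (2.42 to 2.62) lay below it.

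**Figure D3:**
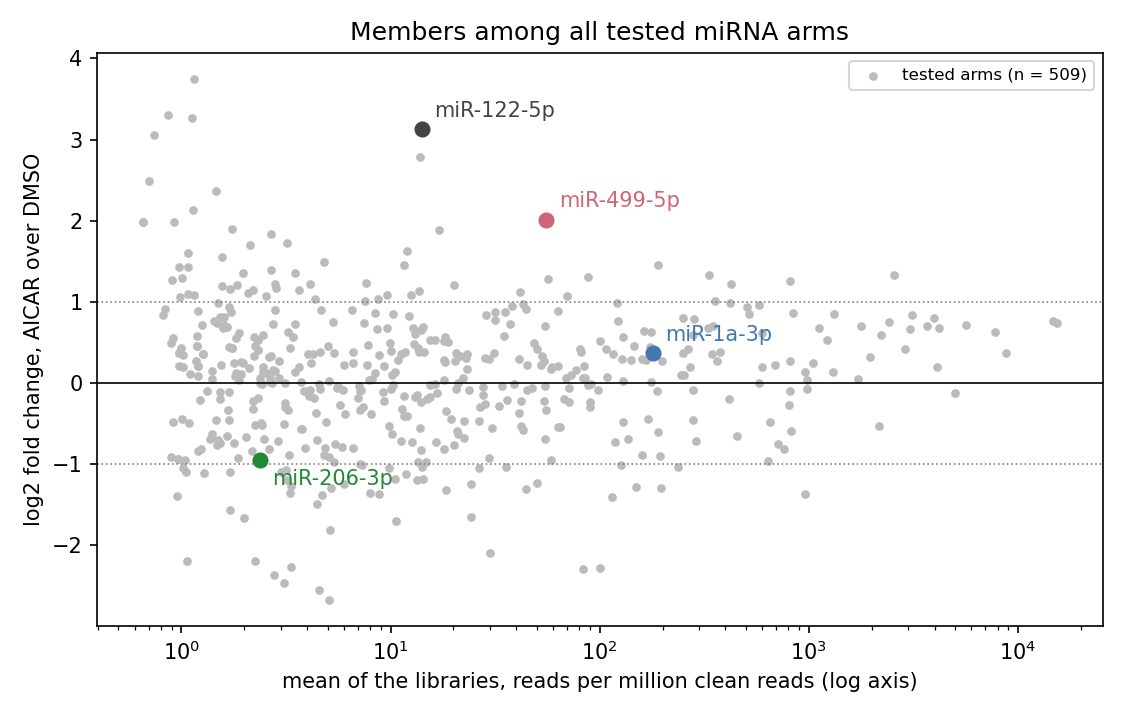
Each of the 509 tested arms by its mean level over the libraries (RPM, log axis) and its log2 fold change of AICAR over DMSO, scaled to clean reads, with dotted lines at a change of 2-fold. MiR-499-5p (log2 2.01) stands above nearly all arms of like level, miR-1a-3p (0.37; below 0 when scaled to miRNA reads) lies among them, miR-206-3p (-0.96) lies near the lower line, and miR-122-5p (3.12) is shown for comparison.

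The reads of miR-499-5p were on only 6 distinct tags, all on the 5p arm. The main tags are shown as deposited, with the base by which they differ in capitals.
miR-499-5p tag of 22 nt: ttaagacttgcagtgatgtttA
miR-499-5p tag of 21 nt: ttaagacttgcagtgatgttt
The 21 nt tag is the RefSeq mature sequence. The added A of the 22 nt tag is also the next base of the hairpin, so an A read from the hairpin and an A added to the finished miRNA cannot be told apart. The 22 nt tag had 258 reads with DMSO and 1410 with AICAR, with a fold change of 4.89 (4.28 to 5.61). The 21 nt tag went from 156 to 455 reads (fold change 2.61, interval 2.17 to 3.15). Relative to clean reads both forms were thus above 2. Relative to miRNA reads the fold change of the whole arm was lower, at 2.95. The longer form differed more: the ratio of the fold changes was 1.87 (1.48 to 2.36, p = 8.2e-08, Fisher's exact test).

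A larger fold change of the longer form was also found in other miRNAs. In 166 arms with at least 50 reads in each library on the reference tag and on the tag 1 nt shorter, the longer form had the larger fold change in 138, with a median ratio of 1.26, and 13 had a ratio at least as large as miR-499-5p. Tags under 21 nt held 9.49% of the hairpin reads with DMSO and 3.81% with AICAR. The part of this length difference in the results for miR-499-5p was not tested.

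By length, the reads of miR-499-5p were 37.6% at 21 nt and 61.7% at 22 nt in the DMSO library (Wilson intervals 33.1% to 42.3% and 57.0% to 66.3%), and 24.7% and 75.1% in the AICAR library (22.8% to 26.7% and 73.1% to 77.0%). MiR-1a-3p was far more uniform, with 97.5% of its reads at 22 nt with DMSO and 98.4% with AICAR. MiR-206-3p had 84.7% and 76.5% at 22 nt, with intervals that overlap. The 5′ end, which sets the seed, was nearly fixed: 99.3% and 99.4% of the reads of miR-499-5p, and at least 99.9% of those of miR-1a-3p, began at the same base in the DMSO and the AICAR library. MiR-133a-3p was less fixed, since 4 of its 5 DMSO reads and 3 of its 9 AICAR reads began 1 base after the others.

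**Figure D4:**
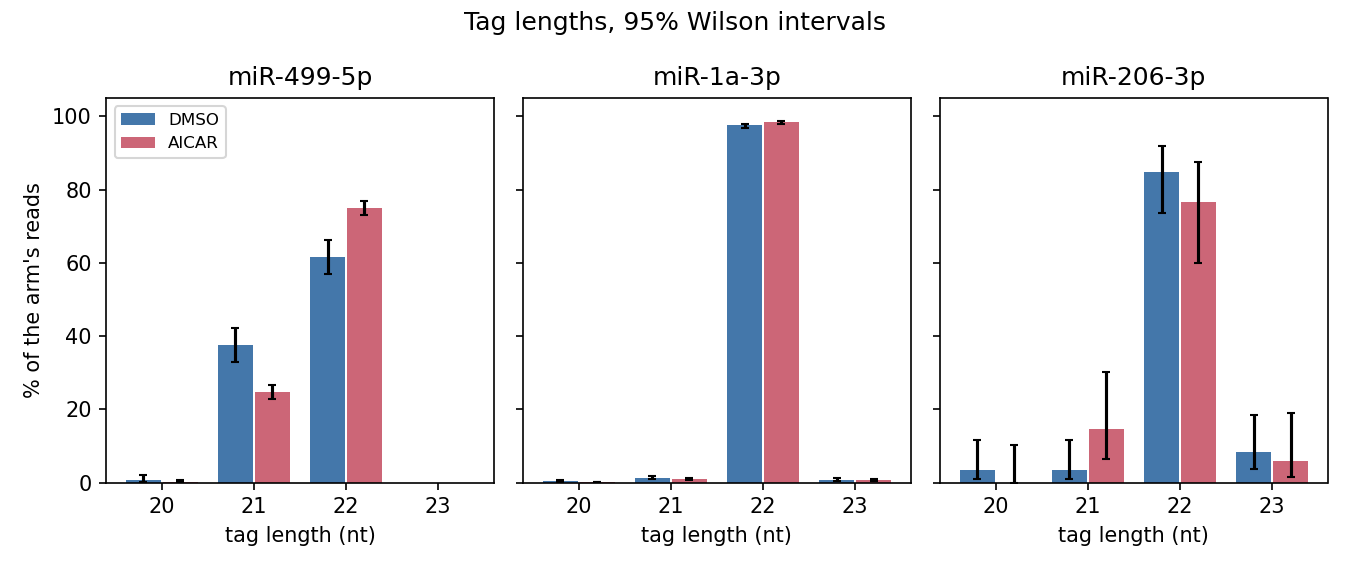
Share of the reads of miR-499-5p, miR-1a-3p and miR-206-3p (y axis, percent of the arm's reads) on tags of 20 to 23 nt in each library, with Wilson 95% intervals. MiR-499-5p is split between 21 and 22 nt and shifts from 61.7% to 75.1% at 22 nt, whereas miR-1a-3p sits at 22 nt in both libraries.

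The passenger strand miR-499-3p had 0 reads in both libraries. At 3 reads as the limit, it reached at most 0.718% of the miR-499-5p reads with DMSO and 0.159% with AICAR, so a change of the arm ratio could not be tested. Of the 201 hairpins with at least 1000 reads over both libraries, 19 had 0 reads on the minor arm, and the median share of the minor arm was 2.38%. Mir499 and Mir1a-2 were among the 19. Mir1a-1 gave 2 reads of its 5p strand, both in the AICAR library. They are the only reads that belong to 1 of the miR-1a hairpins alone, since the 3p strands of Mir1a-1 and Mir1a-2 are the same.

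The reads of neighbouring members were very unequal. The reads of miR-1a-3p were 593 times those of miR-133a-3p with DMSO (exact interval 254 to 1828) and 474 times with AICAR (250 to 1038), although each miR-1a hairpin lies within 10 kb of a miR-133a hairpin on the same strand. Among the 143 neighbouring pairs of hairpins on 1 strand with gaps of at most 10 kb and at least 1000 reads on the larger (a smaller count of 0 was taken as 1), the median ratio was 5.09, and 22 pairs (15.4%) had a ratio of at least 100. Mir206 (93 reads) and Mir133b (0 reads) showed the same order of the families at a lower level. Reads of different miRNAs were not corrected for the preferences of adaptor ligation, so these ratios describe reads and not molecules.

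The host genes were looked up in the same libraries as fragments of spliced transcripts, which are not a measure of mRNA level. Tags that match Myh7b and no other annotated gene had 4 reads with DMSO and 3 with AICAR, a fold change of 0.671 with an interval from 0.0983 to 3.97. Myh6 had 0 reads, Myh7 had 1 and 2, and Gm28653 outside the hairpins had 2 and 1. Mir133a-1hg had 0 reads. Mib1, an E3 ubiquitin ligase of Notch signalling on the other strand, gave 46 and 24 reads (fold change 0.467, interval 0.273 to 0.781). The 1963 protein-coding genes with at least 20 fragments in each library had a median fold change of 0.795. These counts are too small to say whether the host of Mir499 changed.

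Mir499 is also one of the hairpins that lie in introns of protein-coding genes. Of 195 tested arms from introns of protein-coding genes on the same strand, 20 (10.3%) were up-regulated, against 36 of the 314 other arms (11.5%). Down-regulated were 7 of the 195 and 41 of the 314, and the median fold changes were 1.16 and 1.02. The difference between these classes was not tested. The nearest annotated hairpin to Mir499, Mir695, lies 266063 bp away and had 0 reads.

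Other miRNAs linked to muscle but not limited to it were taken from a list of 15 hairpins, 12 of them with reads under the listed symbols. Of their 13 tested arms, 0 were called in either direction (background 11.0% up and 9.43% down), with a median fold change of 1.26 against 1.10 for all arms. MiR-486 is outside these counts, because its hairpins are annotated as Mir486 and Mir3107 and not under the listed symbols. Both of its tested arms were up-regulated: miR-486-5p, shared with miR-3107-5p (28 and 103 reads, 3.29), and miR-486-3p (4 and 43 reads, 9.62). Among the 13 counted arms, the highest fold changes were those of miR-22-3p (551 and 1208 reads, 1.96), miR-29c-3p (490 and 1058 reads, 1.93) and miR-31-5p (472 and 965 reads, 1.83). MiR-378a-3p, which accompanies mitochondrial genes, had 4987 and 9065 reads (1.63). Values below 1 among the 13 were those of miR-221-5p (36 and 24 reads, 0.596), miR-181a-5p (974 and 725 reads, 0.666) and miR-222-3p (1099 and 1054 reads, 0.858).

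Markers of other cell types were read beside the members, and their calls stand against the shares of all 509 arms (11.0% up, 9.43% down, 20.4% in all). With 1 to 12 arms tested a list, nothing is read from these counts. The 6 hairpins of the ES cell miR-290 group held 33058 RPM with DMSO and 57222 RPM with AICAR, all 6 had reads, and 2 of their 12 tested arms were up-regulated. Of the cardiac and skeletal muscle markers, 3 of 4 had reads and Mir208a had none, with a summed level of 161 and 205 RPM, nearly all of it miR-1a-3p. The liver marker Mir122 moved with miR-499-5p, from 2.91 to 25.4 RPM, and its part in the result was not tested. The blood markers had reads for 4 of 5 hairpins (Mir223 had none), with 32.9 and 27.0 RPM in sum and 0 of 3 tested arms called. They did not all go one way: Mir451a had 7 and 21 reads, Mir144 12 and 7, Mir142 304 and 312, and Mir150 298 and 229. The fibroblast markers had reads for 4 of 5 (Mir214 had none), with 210 and 209 RPM, and of 4 tested arms miR-145a-5p was up-regulated (2.73) and miR-143-5p down-regulated (0.422). The neural marker Mir9-1 held 20.9 and 19.2 RPM, with neither of its arms called. The other listed neural marker, miR-124, is outside these counts, because its hairpins are annotated as Mir124a-1, Mir124a-2 and Mir124a-3. Its 3p arm had far more reads than Mir9-1, 4815 with DMSO and 8584 with AICAR (fold change 1.60). Its 5p arm had 43 and 55 reads (1.14), and neither arm was called.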

How the data were processed

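Small RNA of 18 to 30 nt from J1 ES cells was sequenced by the authors, 1 library per condition. The authors removed low-quality and contaminant reads, and the deposited files give the raw read count of each distinct clean tag with its length and sequence, without normalization. Per the labels the build of the authors' own mapping was mm9; coordinates here are those of GENCODE vM21 (GRCm38), and no alignment of the authors was used.

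Tags were matched without mismatch to 1174 hairpins. On each arm the tag with the most reads was the reference tag, and tags whose 5′ and 3′ ends were at most 2 and 4 nt from its own were counted, in full for each miRNA they fit. The members, lists and tests were chosen with earlier results of these data known. Named are all member arms with reads, their host genes, arms of the lists, and the 5 arms of at least 10 RPM nearest to miR-499-5p in log2 fold change. The larger fold changes, Mir695 and the miR-133c hairpin were named after their values were seen, and the comparisons of tag lengths, neighbouring hairpins, intronic hairpins and miR-1a-3p with miR-206-3p were also chosen then. With 1 library per condition edgeR's quasi-likelihood test could not be fitted, so Fisher's exact test of the counts was used. The list symbols Mir486a, Mir486b and Mir124-1 were not in the annotation used. It names these miRNAs otherwise (Mir486, Mir3107, Mir124a-1, Mir124a-2 and Mir124a-3), so the list counts leave them out. Host fragments were tags that match 1 annotated gene, since no genome was used here. The steps were tested on simulated data. Python 3.11.15, scipy 1.17.1, numpy 2.4.6, matplotlib 3.10.9, R 4.3.3 and edgeR 4.0.16 were used.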

Additional observations from a re-analysis of the deposited data

Results flagged for a closer look

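Some reads lay outside the counts above and were more numerous in the AICAR library. Tags of miR-499-5p with 1 or 2 bases added at the 3′ end had 3 reads with DMSO and 13 with AICAR, and tags of miR-499-5p with 1 mismatch had 3 and 13 reads, each 0.713% and 0.686% of the reads with the miR-499-5p tags, so they kept about the proportion of the matched tags. Tags of miR-1a-3p with 1 mismatch had 20 and 26 reads (0.670% and 0.605%). Mir1b, annotated on the strand opposite to Mir1a-2 on chromosome 18 and not among the chosen hairpins, had 8 reads with DMSO and 9 with AICAR, a difference within the counting error.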

How the results depend on the processing

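The fold change of miR-499-5p lay between 2.95 and 4.89 over 12 alternatives and kept its call in 11; with edgeR's exact test at an assumed coefficient of variation of 0.4 it was 4.03 with p = 0.0205. The fold change of miR-1a-3p lay between 0.945 and 1.30 and was below 1 relative to miRNA reads. That of miR-206-3p lay between 0.378 and 0.534, and it was called with the 3 other denominators and when the reference tag alone was counted (0.465), but p was 0.0745 and 0.305 at the assumed coefficients of variation of 0.2 and 0.4. The ratios of miR-499-5p to miR-1a-3p (3.13 to 3.76) and to miR-206-3p (7.58 to 10.5) kept direction and threshold under 7 rules for tags. None of these rules allowed for a spread between libraries. The ratio to miR-133a-3p turned to 0.751 with tags of the reference 5′ end only, where few reads remain. Relative to miRNA reads 21 arms were up-regulated and 112 down-regulated, against 56 and 48. With a minimum of 10 RPM these were 23 and 25, which tests fewer arms. An assumed coefficient of variation of 0.2 gave 33 up-regulated arms, and 0.4 gave 5 and 5. With tags of at least 21 nt 30 were down-regulated. TMM scaling gave 40 up-regulated and 64 down-regulated arms, and median-ratio scaling 47 and 59. The 7 detected hairpins were 7 with 1 mismatch. They were also 7 with tags that match no annotated transcript other than the members and their host genes, a rule chosen after seeing the data. The planned comparison with the genome was not run. No fold change of miR-499-3p and no arm ratio had a value. No paired analysis was possible because there is 1 library per condition. Counts under 20 reads, as for miR-133a, miR-208b and Myh7b, limit what the depth can show.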
